A study of Mus musculus with 6 samples.

Results

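The mitochondrial ribosomal protein genes are the nuclear genes for the proteins of the ribosome inside mitochondria. They were taken here as all protein-coding mouse genes whose symbol is Mrpl or Mrps followed by digits, with an optional letter as in Mrps18a. The annotation holds 78 such genes, and 77 of them were found among the 45513 gene identifiers of the count table. Membership was set by the gene name alone, but the group was chosen with earlier results of these data known. Of the 77 genes, 75 passed the filter on low counts and were tested. Mrps23 had between 0 and 2 reads in each library and Mrpl53 between 0 and 1, and neither was tested. Mrpl33 was not matched to a row of the table and is not analysed here.

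The series compares keratinocytes, the main cell of the epidermis, isolated from the skin of mice that lost laminin 332 with those of control mice, 3 mice in each group on a C57BL/6 background. Lama3 encodes the alpha chain of laminin 332, which anchors basal keratinocytes to the basement membrane. Knockout mice were Lama3flox/flox with K14-CreERT, in which loxP sites flank exons 50 to 53 of Lama3. A Cre recombinase under the keratin 14 promoter, active in basal keratinocytes once tamoxifen is given, removes these exons, and tamoxifen citrate was given in chow at 400 mg per kg. The design text gives the controls as Lama3wt/flox with the same K14-CreERT, so that they carry 1 floxed allele and the Cre, while their genotype label reads wild type. The floxed gene stays intact in both groups in cells that neither use keratin 14 nor descend from cells that used it. Age, sex and the time on tamoxifen are not given in the sources used here. The libraries are named control 1 to 3 and knockout 1 to 3 after their titles, and each comes from 1 mouse.

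The mitochondrial ribosome, or mitoribosome, translates the few messenger RNAs that the mitochondrial genome encodes, all of which specify subunits of the respiratory chain and ATP synthase. Its ribosomal RNAs come from the mitochondrial genome, while all of its proteins are encoded in the nucleus, made in the cytosol and imported. Some of these proteins descend from bacterial ribosomal proteins and others were added in the mitochondrial lineage. In the epidermis, keratinocytes carry respiring mitochondria in the basal layer and lose them as they cornify.

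Promoter sequences of 5 members are shown first, because these genes span the fold changes described below. They are Mrps16 and Mrpl41, the pair with the lowest fold changes, Mrps27, the one with the highest, and the paralogs Mrps18b, which was not called, and Mrps18c, which was lower. Each run is the 250 bases before the RefSeq transcription start, 5′ to 3′ on the gene's own strand, in build GRCm38.p6. The Mrps16 stretch is chr14:20393491-20393740 on the minus strand, that of Mrpl41 is chr2:24975099-24975348 on the minus strand and that of Mrps27 is chr13:99344536-99344785 on the plus strand. The Mrps18b stretch is chr17:35916441-35916690 on the minus strand and the Mrps18c stretch is chr5:100798509-100798758 on the plus strand. Capitals mark matches, on either strand, to the motifs CCGGAAG (the core bound by GABP and other ETS factors), GCATGCGC (NRF1), AAGATGGCG (YY1), CACGTG (the E-box) and GGGCGG (the GC box).
Mrps16: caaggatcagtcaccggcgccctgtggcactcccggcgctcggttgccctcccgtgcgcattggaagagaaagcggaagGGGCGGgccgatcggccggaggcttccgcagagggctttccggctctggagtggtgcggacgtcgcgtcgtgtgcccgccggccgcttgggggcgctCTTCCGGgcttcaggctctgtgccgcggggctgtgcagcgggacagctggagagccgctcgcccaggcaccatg
Mrpl41: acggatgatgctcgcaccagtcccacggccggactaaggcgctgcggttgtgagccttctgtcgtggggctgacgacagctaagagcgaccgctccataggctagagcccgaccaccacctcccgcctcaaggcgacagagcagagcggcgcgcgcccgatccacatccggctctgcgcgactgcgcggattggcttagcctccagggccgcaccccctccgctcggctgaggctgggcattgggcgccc
Mrps27: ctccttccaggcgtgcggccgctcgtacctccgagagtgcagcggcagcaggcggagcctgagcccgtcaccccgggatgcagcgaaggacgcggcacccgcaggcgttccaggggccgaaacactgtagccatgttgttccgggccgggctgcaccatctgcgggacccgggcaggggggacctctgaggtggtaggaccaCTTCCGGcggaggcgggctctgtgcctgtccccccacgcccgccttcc
Mrps18b: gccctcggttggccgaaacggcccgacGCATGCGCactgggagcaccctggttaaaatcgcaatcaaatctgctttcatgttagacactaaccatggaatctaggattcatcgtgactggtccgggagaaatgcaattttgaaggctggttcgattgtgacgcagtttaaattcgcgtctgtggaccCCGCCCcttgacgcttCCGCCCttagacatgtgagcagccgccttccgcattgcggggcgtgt
Mrps18c: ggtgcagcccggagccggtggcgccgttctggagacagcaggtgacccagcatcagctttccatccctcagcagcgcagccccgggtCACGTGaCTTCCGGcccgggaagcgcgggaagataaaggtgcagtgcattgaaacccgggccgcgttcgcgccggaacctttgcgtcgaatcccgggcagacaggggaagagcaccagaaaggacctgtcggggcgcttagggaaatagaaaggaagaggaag
The Mrps16 stretch held a GC box 171 bases and an ETS core 74 bases before the start. The Mrpl41 stretch held none of the motifs. In Mrps27 an ETS core lay 48 bases before the start. Mrps18b held an NRF1 core 223 bases before the start and GC boxes at 63 and 47 bases, and Mrps18c an E-box 163 bases and an ETS core 156 bases before it. These distances are from the RefSeq start, and the GENCODE annotation used for gene positions can differ. Its starts of Mrps16 (20393634) and Mrps18c (100798627) lie inside the stretches shown. By GENCODE the ETS core of Mrps16 thus lies within the gene.

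Windows from 250 bases before to 50 bases after the start were found in RefSeq for 69 members and compared with those of all 17492 genes that have one. The ETS core was present in 25 member windows (36.2%) and in 11.9% of all windows. The NRF1 core was present in 8 (11.6% against 3.61% of all windows) and the YY1 motif also in 8 (11.6% against 1.94%). E-boxes were found in 5 member windows (7.25% against 7.90%) and GC boxes in 34 (49.3% against 46.3%). Median GC content was 58.3% in the member windows and 56.3% in all windows. These matches are descriptions of the letters in the windows. Among the 38 members with a window that were lower in the knockouts, described next, 14 held the ETS core (36.8%) and 2 the YY1 motif (5.26%). Among the 28 with a window that were not called, 8 held the ETS core (28.6%) and 6 the YY1 motif (21.4%).

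In the knockouts 42 of the 75 tested members were lower and 0 were higher. The quasi-likelihood test of edgeR was used, with p values adjusted by Benjamini and Hochberg's method across the 15513 genes tested, and the words rose, fell, higher and lower stand for genes with an adjusted p under 0.05. Over those genes the same test called 18.8% lower and 17.4% higher. Higher genes made up 48.0% of those called, and 30.6% under upper-quartile scaling, where 58 members were lower and 0 higher, against 25.7% of all genes lower. At an unadjusted p under 0.05, 53 members were lower and 0 were higher, against 25.0% and 22.8% of all genes, and DESeq2 and limma-voom also called 0 members higher. Levels are given as CPM, edgeR's count scaled to the size of the library, and fold changes are on a log2 scale, knockout over control, with their standard error (SE). The members' median log2 fold change was -0.48, against -0.02 over all genes tested and -0.05 over the 12857 tested genes with exon lengths between 607 and 8631 bases, the range of the members. The tested members reached from -1.38 in Mrps16 to 0.29 in Mrps27, and 70 were below 0 and 5 above it. In bulk libraries, fewer cells of a type and less RNA per cell cannot be told apart.

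**Figure D1:**
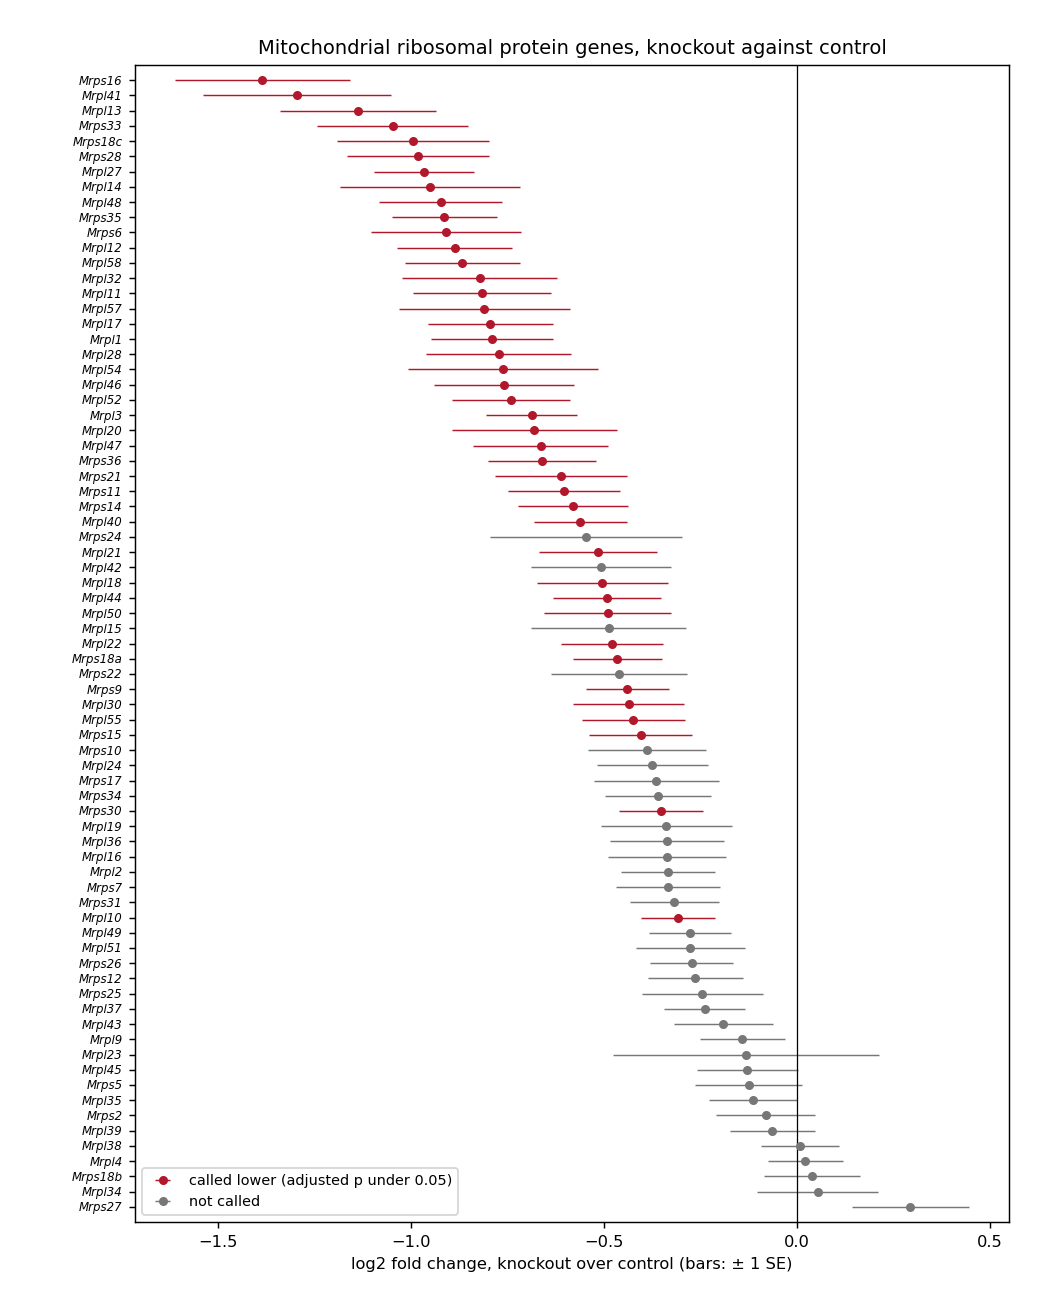
Log2 fold change, knockout over control, of the 75 tested mitochondrial ribosomal protein genes, ordered by value; points are edgeR estimates, bars ± 1 SE, red marks genes called lower and grey genes not called. The 42 red points lie between -1.38 and -0.31, and the 5 points above 0 are grey.

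Of the 42 members that fell, 32 had a log2 fold change below -0.5 and 4 (Mrps16, Mrpl41, Mrpl13 and Mrps33) fell more than 2-fold. Their adjusted p values lay between 0.00259 and 0.0490. All 3 knockouts were below all 3 controls in 39 of these 42 members, and in 52 of all 75, against 26.5% of all genes tested. Another 13 members had all knockouts below all controls without passing the test, and in 20 not-called members the groups overlapped. The number of members lower depended on the libraries kept: it was 20 without control 3 and 22 without control 1, without knockout 1 or without knockout 2, with 0 higher each time. The share of all genes called lower was smaller too in these 4 fits, between 10.8% and 12.7%. The number of members was 38 without control 2 and 48 without knockout 3, with 16.9% and 17.4% of all genes lower. Under 18 alternative settings of the test, 16 members were called lower every time: Mrps16, Mrpl41, Mrpl13, Mrps33, Mrps28, Mrpl27, Mrpl48, Mrps35, Mrps6, Mrpl12, Mrpl58, Mrpl11, Mrpl17, Mrpl1, Mrpl3 and Mrpl40.

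Summed over the 77 members in the table, the level was 3090, 2597 and 3123 CPM in controls 1 to 3 and 2034, 1811 and 2319 CPM in knockouts 1 to 3. The 2 sets of sums did not overlap. The mean was 2937 ± 295 CPM in controls and 2055 ± 254 CPM in knockouts (SD, n = 3), which is 70.0% of the control mean. The sum is a description, and no test was run on it. Within a group, the same library was often the lowest or highest from member to member. Control 2 was the lowest control for 54 of the 75 tested members, knockout 2 was the lowest knockout for 59 and knockout 3 the highest knockout for 58.

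The libraries held between 20126395 and 28473479 counts each. Lama3 itself, counted over the whole gene and not over the floxed exons alone, was at 141, 142 and 114 CPM in the controls and 97.3, 98.9 and 79.2 CPM in the knockouts (log2 fold change -0.53, SE 0.14, adjusted p 0.0215). The labelled cell type was checked against 12 keratinocyte markers, which were all detected. Their summed level was 32461 to 39987 CPM in controls and 44878 to 65001 CPM in knockouts (4 of 12 higher, 1 lower). Markers of other cells moved with the groups too. The summed level of 8 T cell markers was 150 to 296 CPM in controls and 65.2 to 76.8 CPM in knockouts (8 of 8 lower). Hair shaft and inner root sheath markers, 8 found, summed to 76.3 to 268 CPM and 17.9 to 24.9 CPM (7 of 8 lower), and 8 melanocyte markers to 87.1 to 226 CPM and 55.5 to 60.6 CPM (6 of 8 lower). The 8 sebaceous markers summed to 1092 to 1510 CPM and 629 to 1128 CPM (4 of 8 lower). The 8 neutrophil markers, 3 of them at 0 in all libraries, summed to 0.388 to 2.08 CPM and 9.42 to 32.0 CPM (1 tested, which was higher). The part of these shifts in the members' fold changes was not tested.

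Large subunit proteins build the part of the ribosome that forms peptide bonds. Of 49 tested genes for them, 30 were lower, with a median log2 fold change of -0.49. Mrpl41, a protein of the large subunit with no bacterial counterpart, was at 60.0, 39.4 and 61.6 CPM in controls and 21.3, 16.0 and 28.3 CPM in knockouts. The highest knockout stayed below the lowest control, and the log2 fold change was -1.29 (SE 0.24, adjusted p 0.00752). Mrpl13, the counterpart of bacterial protein L13, was at 75.9, 49.1 and 75.6 CPM in controls and 29.7, 25.4 and 36.2 CPM in knockouts. Here too the groups were apart, with control 2 nearest to the knockouts (-1.14, SE 0.20, adjusted p 0.00623).

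Mrpl27, the counterpart of bacterial L27 near the peptidyl transferase centre, had the smallest adjusted p of all members. Its level was 29.8, 26.9 and 28.7 CPM in controls and 14.9, 12.7 and 16.1 CPM in knockouts. The spread within each group was small beside the gap between them (log2 fold change -0.97, SE 0.13, adjusted p 0.00259). Mrpl12 belongs to the stalk that recruits translation factors. It was at 72.4, 62.4 and 76.0 CPM in controls and 37.8, 31.6 and 44.6 CPM in knockouts, without overlap (-0.89, SE 0.15, adjusted p 0.00500). Mrpl11, at the base of that stalk, fell by 0.82 on the log2 scale (adjusted p 0.0123), while Mrpl10, which holds Mrpl12 in the stalk, fell by 0.31 (adjusted p 0.0392), the smallest change among the members called. Mrpl10 was called in 6 of 18 alternative settings. It was not called with any 1 library left out (adjusted p 0.0601 to 0.112) or with either offset for length described below (-0.13, adjusted p 0.281, and -0.22, adjusted p 0.0742). Mrpl58 (also named Ict1), a peptidyl-tRNA hydrolase that rescues stalled ribosomes and is built into the large subunit, fell by 0.87 (adjusted p 0.00524).

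Mrpl24 and Mrpl52 were among the highest members per kilobase of exon. Mrpl24, the counterpart of bacterial L24, was at 151, 121 and 140 CPM in controls and 94.8, 99.3 and 124 CPM in knockouts. Knockout 3 lay above control 2, and the test did not call it (log2 fold change -0.37, SE 0.14, adjusted p 0.0739). Without knockout 3 Mrpl24 was called, at -0.49 (adjusted p 0.0308). Exons of other genes cover 26.3% of its exon bases. Mrpl52 was at 77.6, 54.7 and 70.3 CPM in controls and 39.0, 37.0 and 45.3 CPM in knockouts, with no overlap (-0.74, SE 0.15, adjusted p 0.00950). With an offset for the length of the principal transcript, described below, Mrpl52 was not called (-0.23, adjusted p 0.102).

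Not all large subunit genes were lower. Mrpl4, the counterpart of bacterial L4 at the exit tunnel, was at 45.2, 45.2 and 42.6 CPM in controls and 43.4, 44.5 and 47.1 CPM in knockouts. Mrpl38 was at 29.2, 30.5 and 29.8 CPM and 29.1, 29.6 and 31.4 CPM, and Mrpl34 at 9.95, 8.34 and 10.97 CPM and 10.1, 10.1 and 10.2 CPM. In these 3 genes the groups overlapped, with log2 fold changes of 0.02 (SE 0.10), 0.01 (SE 0.10) and 0.05 (SE 0.16) and adjusted p of 0.873, 0.957 and 0.807. Their signs turned under upper-quartile scaling, which lowered the median of all genes by 0.15 on the log2 scale (its values were -0.13, -0.14 and -0.10). Mrpl39 was at 26.3, 26.7 and 27.6 CPM in controls and 27.4, 23.7 and 26.1 CPM in knockouts (-0.06, SE 0.11, adjusted p 0.672). Mrpl23 had few reads, at 0.799 to 1.51 CPM in any library, and its fold change of -0.13 had an SE of 0.34.

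Small subunit proteins hold the messenger RNA and the decoding site. Of 25 tested genes for them 11 were lower, with a median log2 fold change of -0.40. Mrps16, the counterpart of bacterial S16, lies at chr14:20389304-20393634 on the minus strand. It was at 63.7, 39.3 and 57.3 CPM in controls and 17.9, 17.3 and 26.1 CPM in knockouts. The highest knockout was well below control 2, the lowest control, and its log2 fold change of -1.38 (SE 0.23, adjusted p 0.00473) was the lowest of all members. Mrps33 and Mrps35, both without bacterial counterparts, also fell. Mrps33 was at 44.9, 31.2 and 43.8 CPM in controls and 18.5, 15.9 and 23.7 CPM in knockouts (-1.05, SE 0.19, adjusted p 0.00704). Mrps35 was at 40.8, 32.3 and 37.5 CPM in controls and 18.6, 18.2 and 22.0 CPM in knockouts (-0.91, SE 0.14, adjusted p 0.00351). Neither gene had overlapping groups.

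Mrps28 was at 26.7, 23.8 and 27.9 CPM in controls and 13.2, 10.2 and 16.4 CPM in knockouts, again apart (log2 fold change -0.98, SE 0.18, adjusted p 0.00713). Mrps21, the counterpart of bacterial S21, had the highest level per kilobase of exon of all members. It was at 54.0, 47.9 and 58.5 CPM in controls and 34.1, 27.7 and 43.2 CPM in knockouts, with knockout 3 close below control 2. Its log2 fold change was -0.61 (SE 0.17, adjusted p 0.0270), and it was not called without control 1, control 3, knockout 1 or knockout 2 (adjusted p 0.0674, 0.0861, 0.0852 and 0.0682). Mrps12, whose bacterial counterpart lies at the decoding site, and Mrps5, whose counterpart lies near the entry of the messenger RNA, were not called, with log2 fold changes of -0.26 (adjusted p 0.125) and -0.13 (adjusted p 0.505). Mrps27, a pentatricopeptide repeat protein, was at 21.4, 25.1 and 26.5 CPM in controls and 31.3, 24.6 and 33.6 CPM in knockouts. Knockouts 1 and 3 were above all controls and knockout 2 was not, and the highest fold change among members was not called (0.29, SE 0.15, adjusted p 0.161). Exons of other genes cover 24.2% of the exon bases of Mrps27.

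The Mrps18 paralogs all derive from a bacterial S18 gene, yet sit at different places of the mitoribosome, Mrps18a in the large subunit and Mrps18b and Mrps18c in the small one. Mrps18c was at 33.5, 20.8 and 26.8 CPM in controls and 14.0, 11.4 and 15.3 CPM in knockouts. The groups did not overlap (log2 fold change -0.99, SE 0.20, adjusted p 0.00854). Mrps18a was at 32.0, 29.4 and 30.7 CPM in controls and 21.8, 20.6 and 24.4 CPM in knockouts, also apart (-0.46, SE 0.11, adjusted p 0.0174). With control 1, control 3, knockout 1 or knockout 2 left out, Mrps18a did not pass the test (adjusted p 0.0513, 0.0588, 0.0605 and 0.0607). Nor did it with the offset for principal transcript length (-0.17, adjusted p 0.177). Mrps18b was at 19.8, 23.2 and 23.3 CPM in controls and 23.0, 20.9 and 24.2 CPM in knockouts. Its groups overlapped (0.04, SE 0.12, adjusted p 0.826), and the sign turned to -0.11 under upper-quartile scaling. The difference between the paralogs was not tested. Exons of other genes cover 30.5% of the exon bases of Mrps18b and 23.2% of those of Mrps18c, and the use of strand in counting is not given, so part of either count may belong to a neighbour.

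**Figure D2:**
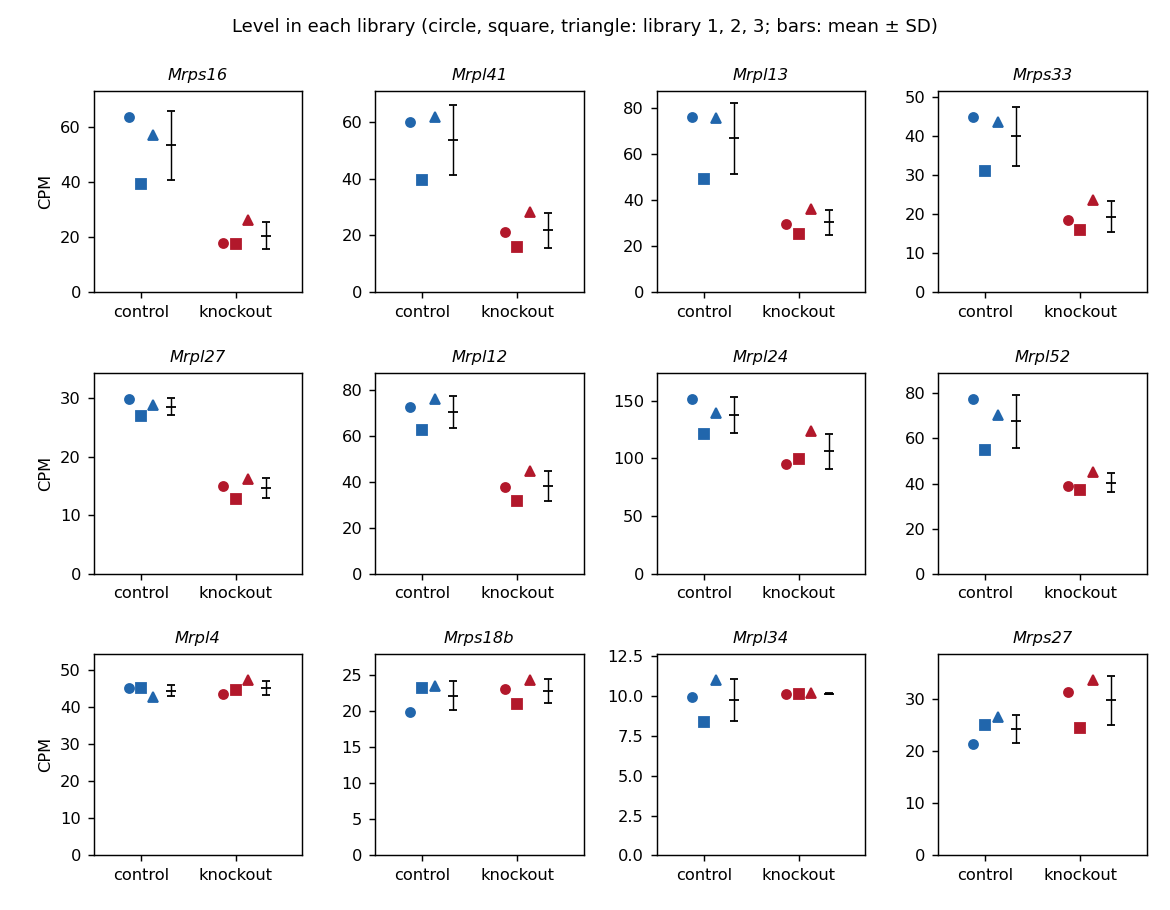
CPM of 12 members in each library, with circles, squares and triangles for libraries 1, 2 and 3 of a group (blue control, red knockout) and black bars for the mean ± SD of 3 libraries; each vertical axis starts at 0 and has its own scale. In the upper 2 rows all knockouts lie below all controls except in Mrpl24, where knockout 3 at 124 CPM exceeds control 2 at 121 CPM, and in the lowest row the groups overlap.

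Split by descent, 28 of 47 tested members with a bacterial counterpart were lower (median log2 fold change -0.48), as were 13 of 27 that are specific to mitochondria (median -0.46). In the large subunit these were 19 of 30 with and 11 of 19 without a counterpart. In the small subunit they were 9 of 17 and 2 of 8. Differences between these classes were not tested. Mrps36 stands in no class, because its protein is a part of the alpha-ketoglutarate dehydrogenase complex of the citric acid cycle and not of the mitoribosome. It was at 25.0, 19.8 and 23.1 CPM in controls and 15.1, 13.0 and 14.8 CPM in knockouts, without overlap, and fell by 0.66 on the log2 scale (SE 0.14, adjusted p 0.0104). Allowing for length and GC content, as below, it was not called (-0.28, adjusted p 0.0925).

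Levels per kilobase of exon spread widely between members. Mrps21 led with 72.3 ± 7.17 CPM per kb in controls and 47.4 ± 10.5 in knockouts (SD, n = 3). Mrpl24 followed at 60.9 ± 6.88 and 47.0 ± 6.84, Mrpl52 at 60.9 ± 10.5 and 36.5 ± 3.91, and Mrpl41 at 60.4 ± 14.0 and 24.6 ± 6.94 CPM per kb. Within the controls no pair of these 4 differed by more than the sum of their SDs. In the knockouts Mrpl41 was below the other 3 by more than that sum, and no other pair was apart by as much. By the mean over both groups, the lowest levels per kilobase were those of Mrps35 (4.27 ± 0.497 CPM per kb in controls and 2.27 ± 0.240 in knockouts), Mrpl23 (0.239 ± 0.0714 and 0.219 ± 0.0480), Mrps23 and Mrpl53. Mrps35 was at a mean of 36.9 CPM in controls, and its exon length of 8631 bases was the longest of the tested members. Mrpl23, Mrps23 and Mrpl53 had few reads, and whether this reflects their RNA or the counting was not tested. Exons of other genes cover 88.0% of the exon bases of Mrpl53. The median over tested members was 15.3 CPM per kb in controls and 10.9 in knockouts. Exon length here is the union of a gene's exons, and the order depends on that choice. Mrpl52 had a shorter principal transcript than Mrps21 (418 against 488 bases) and a higher mean CPM in controls (67.5 against 53.4). By the length of the principal transcript Mrpl52 would stand above Mrps21.

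Short genes were lower in the knockout libraries in general, and the mitochondrial ribosomal protein genes are short. The principal transcript of the tested members had a median length of 1316 bases (418 to 7300), against 2769 bases over all genes tested. All genes tested were ordered by this length and cut into 10 classes of equal size. The shortest 2 classes, with transcripts up to 1439 bases, took 26.4%, 22.0% and 27.1% of the counts in controls 1 to 3 and 16.7%, 15.5% and 20.4% in knockouts 1 to 3. In the shortest class (47 to 915 bases), 35.2% of genes were lower with a median log2 fold change of -0.52. Of the 17 members in that class 13 were lower, with a median of -0.68. In the next class (916 to 1439 bases) 32.0% of all genes were lower with a median of -0.33, and 14 of 26 members were lower with a median of -0.44. Among genes longer than the overall median of 2769 bases, 12.3% were lower and their median was 0.15. The members above that length numbered 19, of which 11 were lower, with a median of -0.58. Across the 75 members, Spearman's rho between transcript length and log2 fold change was 0.17, and across all genes tested it was 0.30. Both are descriptions over genes that share the same 6 libraries.

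**Figure D3:**
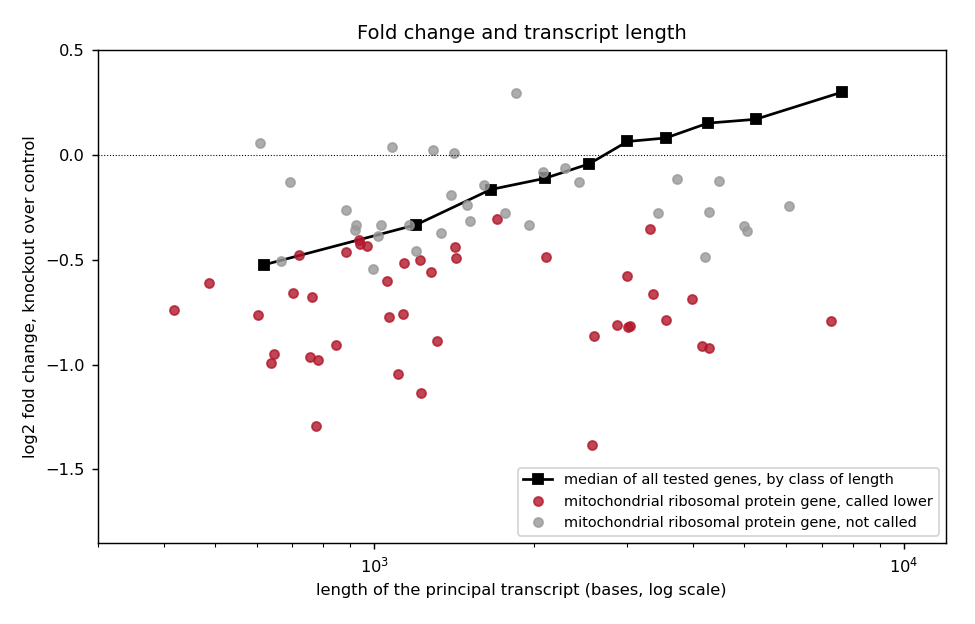
Log2 fold change, knockout over control, against the length of the principal transcript on a log axis, for the 75 tested mitochondrial ribosomal protein genes (red called lower, grey not called), with black squares for the median of all tested genes in each of 10 classes of length. The black line rises from -0.52 to 0.30, and 11 of the 19 members longer than 2769 bases are red, below the line.

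The fit was repeated with an offset in each library for exon length and GC content. It called 28 members lower, 25 of them among the 42, and 0 higher, against 17.1% of all genes called lower by the same fit. The members' median log2 fold change was then -0.35, and 7 members were above 0. With the length of the principal transcript in place of exon length, an offset chosen after seeing the data, 23 members were lower, 22 of them among the 42, and 0 higher, against 16.2% of all genes lower. The median was then -0.24, and 15 members were above 0. In all 3 fits 21 members were lower. Mrps16 remained at -1.24 (adjusted p 0.00660) with the first offset and -1.35 (adjusted p 0.00647) with the other. Mrpl41 was at -0.94 and -0.90, and Mrps35 at -1.04 and -0.97. Calls of some short members were lost under both offsets, among them Mrps21 (-0.24, adjusted p 0.169, and -0.14, adjusted p 0.385) and Mrpl20 (-0.41, adjusted p 0.120, and -0.21, adjusted p 0.309). Mrps18c was still called with the first offset (-0.51, adjusted p 0.0316) and not with the other (-0.38, adjusted p 0.0644). Folds of some members still called under both offsets also shrank. With the second offset Mrpl13 was at -0.66, Mrpl27 at -0.54, Mrps28 at -0.64 and Mrps33 at -0.60, and Mrps6 went from -0.91 to -0.52. All of these but Mrpl13 had already shrunk with the first offset. Other folds grew under both, such as those of Mrpl48 (from -0.92 to -1.07 and -1.03) and Mrpl17 (from -0.79 to -0.85 and -0.99).

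Gene neighbourhoods were read from the annotation. The 78 annotated members lie on 17 chromosomes, with 11 of them on chromosome 11. In 10 of the 77 members at least 20% of exon bases lie in exons of other genes. Of these, 9 were tested and 2 were lower, a share near the 18.8% of all genes. Among the 66 tested members with less overlap 40 were lower, with a median log2 fold change of -0.49. The difference by overlap was not tested. A start within 1000 bases of that of a gene on the opposite strand, head to head, was found for 33 members, and 31 of these pairs had both genes tested. In 8 pairs both genes were lower, counting Mrpl46 and Mrps11, which face each other with starts that overlap by 412 bases, from both sides. In 4 pairs the member was lower and the neighbour higher: Mrpl14 with Tmem63b, Mrpl48 with Rab6a, Mrpl54 with Apba3 and Mrpl44 with Wdfy1. The starts overlap by 583 bases in the Mrpl14 pair, by 891 in the Mrpl48 pair and by 125 in the Mrpl44 pair. Exons of the neighbour cover 11.2%, 8.68% and 7.66% of the exon bases of these members. The use of strand in counting is not given, so part of these counts may belong to the other gene. The Mrpl54 and Apba3 starts lie 26 bases apart, with log2 fold changes of -0.76 (adjusted p 0.0438) and 0.69 (adjusted p 0.00666). Mrpl54 was called in 11 of 18 alternative settings. It was lost under both offsets (adjusted p 0.0777 and 0.108), when genes of low count were kept in (0.0661), and without control 1, control 3, knockout 1 or knockout 2 (0.102, 0.135, 0.118 and 0.117). Mrpl14 was lost when the same 4 libraries were left out in turn (adjusted p 0.0548 to 0.0645). Mrpl44 was lost under both offsets (log2 fold changes of -0.29 and -0.32) and without control 1, control 3, knockout 2 or knockout 3 (adjusted p 0.0568 to 0.0934). Mrpl48 was called in all 18. In 7 further pairs only the member was called, in 4 only the neighbour, which was lower each time, and in 8 neither. Head-to-head pairs were not counted over all genes, of which 18.8% were lower and 17.4% higher.

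Of 5 mitoribosome proteins with other names, all tested, 3 were lower and 0 higher (median log2 fold change -0.44). Chchd1, a small subunit protein, was at 56.6, 38.3 and 62.9 CPM in controls and 22.5, 17.6 and 29.4 CPM in knockouts, without overlap (-1.19, SE 0.24, adjusted p 0.00892), and stayed called at -0.75 and -0.65 with the offsets. Gadd45gip1 and Ptcd3, in the large and small subunit, fell by 0.50 (adjusted p 0.0484) and 0.44 (adjusted p 0.0484) on the log2 scale. Leaving out any library but knockout 3 ended both calls, with adjusted p from 0.0521 to 0.124 for Gadd45gip1 and from 0.0729 to 0.150 for Ptcd3. With the exon length and GC offset neither was called (0.0520 and 0.0614). With the principal transcript length offset Gadd45gip1 was lower (-0.64, adjusted p 0.0348) and Ptcd3 was not called (-0.26, adjusted p 0.169). Aurkaip1 was at -0.34 (adjusted p 0.0597). Dap3, the GTP-binding protein of the small subunit, was at 59.0, 51.8 and 53.1 CPM in controls and 49.3, 56.9 and 42.6 CPM in knockouts. Its groups overlapped (-0.14, SE 0.13, adjusted p 0.428). Dap3 was not called with the exon length and GC offset (-0.36, adjusted p 0.0572) but was lower with the principal transcript length offset (-0.41, adjusted p 0.0392).

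Factors that assemble the mitoribosome were lower in 9 and higher in 1 of 27 tested genes (median log2 fold change -0.35). Fastkd2, an RNA-binding protein needed for the large ribosomal RNA, was at 41.4, 33.5 and 36.7 CPM in controls and 19.6, 19.1 and 23.7 CPM in knockouts. The groups were apart (-0.84, SE 0.14, adjusted p 0.00440). Ddx28, an RNA helicase of large subunit assembly, went the other way, from 8.27, 10.3 and 9.63 CPM in controls to 21.5, 16.5 and 16.0 CPM in knockouts (0.94, SE 0.17, adjusted p 0.00645). Translation factors of mitochondria were lower in 4 of 18 tested genes and higher in 0 (median -0.19), a share near the 18.8% of all genes. Among them Mtif2, the initiation factor that brings the first transfer RNA to the small subunit, fell by 0.79 (SE 0.13, adjusted p 0.00520) and Guf1, a GTPase that acts on the elongating ribosome, by 0.60 (SE 0.12, adjusted p 0.00941). With the principal transcript length offset Guf1 was at -0.39 and still called.

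Transfer RNA synthetases and amidotransferase subunits of mitochondria were lower in 3 of 20 and higher in 0 (median log2 fold change -0.23), a share below the 18.8% of all genes. Qrsl1, a subunit of the glutaminyl amidotransferase, fell by 0.57 (adjusted p 0.0215) and Fars2, the phenylalanyl synthetase, by 0.49 (adjusted p 0.0223). Without control 3, knockout 1 or knockout 2 neither was called (Qrsl1 adjusted p 0.0862, 0.0559 and 0.0727, Fars2 0.0620, 0.0586 and 0.0758), and Fars2 was also lost without control 1 (0.0599) and when genes of low count were kept in (0.0619). Genes that copy and transcribe mitochondrial DNA were lower in 6 and higher in 1 of 15 (median -0.18). Tefm, the elongation factor of mitochondrial transcription, fell from 16.9, 11.4 and 17.7 CPM to 5.24, 4.57 and 7.01 CPM (-1.45, SE 0.24, adjusted p 0.00446). Hsd17b10, a subunit of mitochondrial RNase P, fell from 86.3, 65.8 and 75.0 CPM to 33.4, 35.6 and 36.2 CPM (-1.11, SE 0.13, adjusted p 0.00152). Regulators of mitochondrial biogenesis were higher in 4 and lower in 1 of 14 (median 0.12). Pprc1, a coactivator of the PGC-1 family, rose from 36.9, 40.1 and 38.9 CPM to 68.5, 62.7 and 68.9 CPM (0.79, SE 0.10, adjusted p 0.00210, and 0.47 and 0.40 with the offsets, still called), and Mxi1, which binds MAX in competition with MYC, rose by 0.73 (SE 0.12, adjusted p 0.00446).

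RNAs of the mitochondrial genome, which the mitoribosome contains or translates, were also measured. The large ribosomal RNA mt-Rnr2 was at 883, 1102 and 1501 CPM in controls and 410, 570 and 760 CPM in knockouts. The groups did not overlap (log2 fold change -1.002, SE 0.29, adjusted p 0.0284), but mt-Rnr2 did not pass the test with either length offset (adjusted p 0.213 and 0.184) or with control 2, control 3, knockout 1 or knockout 2 left out (adjusted p 0.0537, 0.0954, 0.0941 and 0.0788). The small ribosomal RNA mt-Rnr1 was at 738, 993 and 1340 CPM and 461, 710 and 875 CPM, with overlap (-0.59, SE 0.30, adjusted p 0.155). Its sign turned with the length offsets, to 0.07 and 0.06 (adjusted p 0.868 and 0.892). Of the 13 mitochondrial messenger RNAs 10 were lower (median -1.07), and with the exon length and GC offset 1 was, with a median of -0.53. In the main comparison mt-Nd6 fell by 0.86 (adjusted p 0.00371) and mt-Nd3 by 1.68 (adjusted p 0.0152); mt-Nd3 was not called without control 3 (adjusted p 0.0506) or without knockout 1 (0.0532), nor with the principal transcript length offset (0.0564). With the 2 offsets mt-Nd6 was at -0.10 (adjusted p 0.715) and -0.04 (adjusted p 0.883) and not called. All mitochondrial transcripts together took 4.87%, 7.24% and 9.96% of counts in controls and 3.29%, 2.53% and 4.32% in knockouts.

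The gene groups most like the members were set beside them. Cytosolic ribosomal protein genes, which serve the ribosome of the cytosol, were lower in 43 of 77 and higher in 0, with a median log2 fold change of -0.65. With the exon length and GC offset 24 of them were lower, 1 was higher and the median was -0.47. Nuclear genes for the respiratory chain and ATP synthase, whose products assemble with those the mitoribosome makes, were lower in 64 of 79 and higher in 0, with a median of -0.72. With the same offset 44 were lower and 0 higher, with a median of -0.48. The members' 42 of 75 at a median of -0.48, and 28 at -0.35 with the offset, are thus the smallest shift of the 3 groups by median. By share called lower, 42 of 75 is close to the 43 of 77 cytosolic ribosomal protein genes. With the exon length and GC offset, 28 of 75 is above 24 of 77. With the principal transcript length offset 17 cytosolic ribosomal protein genes were lower and 1 higher (median -0.36). Of the respiratory chain and ATP synthase genes 32 were then lower and 2 higher (median -0.38), against 23 members lower at -0.24. The differences between the groups were not tested.

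**Figure D4:**
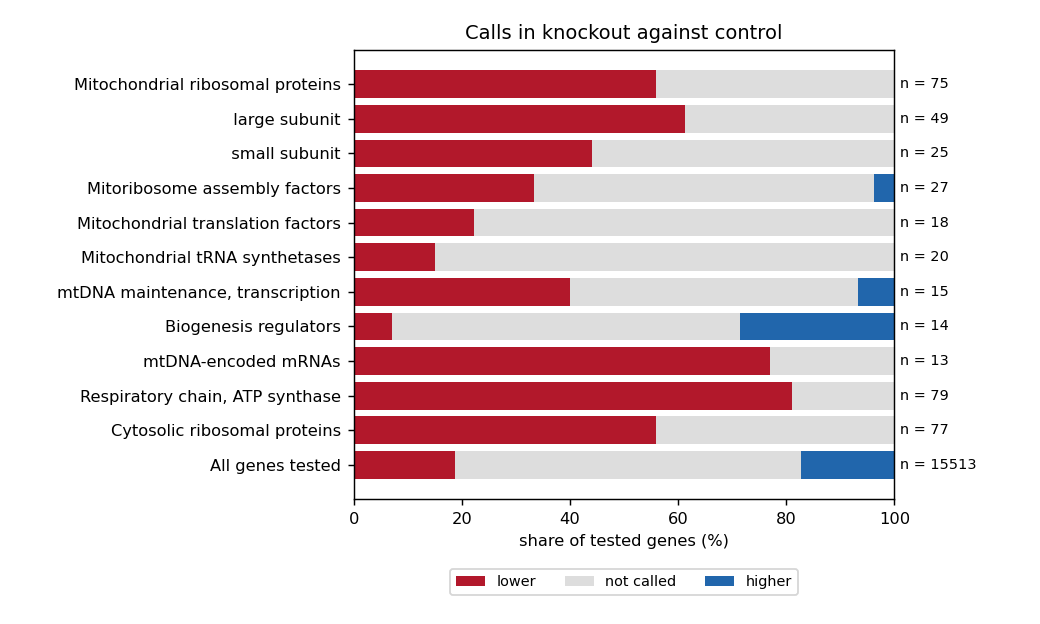
Share of tested genes called lower (red), not called (grey) and higher (blue) in knockout against control at an adjusted p under 0.05, for mitochondrial ribosomal protein genes, their subunits, the related gene groups and all 15513 genes tested, with the number tested at the right. The members show 42 of 75 lower and 0 higher, beside 64 of 79 for the respiratory chain and ATP synthase and 18.8% lower and 17.4% higher over all genes.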

How the data were processed

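Keratinocyte RNA from 3 knockout and 3 control mice was sequenced in read pairs of 100 bases (per the labels). The authors deposited whole-number counts per gene with Ensembl identifiers. The build was GRCm38 and the tools named were featureCounts 1.4.6, TopHat 1.3.3 and Cuffdiff 1.3.0, per the submitters' processing notes. Their roles and settings, the use of strand and the treatment of reads that match several places are not given in the sources used here. This leaves overlapping genes and those with close copies, such as Lars2, uncertain. Lars2 alone had 1854 to 4867 CPM.

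Symbols and lengths came from GENCODE M21, which matched 44671 of 45513 identifiers (98.15%). The 842 without a symbol stayed in library sizes and tests. Exon length is the union of a gene's exons. RefSeq supplied promoter windows.

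Of 25742 identifiers with any count, filterByExpr kept 15513. edgeR 4.0.16 under R 4.3.3 fitted the group alone (TMM factors, robust quasi-likelihood), with Benjamini-Hochberg adjustment. DESeq2 1.42.0, limma-voom (limma 3.58.1), other scalings and filters, each library left out, the replicate number as a block, and loess offsets for length and GC content (span 0.5) were alternatives. The steps were tested on simulated data. Libraries held 20126395 to 28473479 counts, and no 2 were identical. Each library comes from a separate mouse.

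Members, classes and lists were chosen with earlier results of these data known. Members named are the 6 highest and 6 lowest fold changes among those with a mean of at least 5 CPM, the 4 smallest adjusted p, the 4 highest and 4 lowest levels per kb, the Mrps18 paralogs and Mrps36. From each list the 2 called genes with the smallest p are named, with all other mitoribosome proteins and ribosomal RNAs. Mrpl10, Mrpl11, Mrpl20, Mrpl58, Mrps6, Mrps5 and Mrps12, and the head-to-head neighbours, were added after their values were seen. Beside the marker lists in the results, the summed levels in controls and knockouts were 28.2 to 63.4 and 39.0 to 59.4 CPM for macrophage (3 of 8 higher, 0 lower), 48.8 to 115 and 67.1 to 92.7 CPM for fibroblast (3 of 8 lower, 0 higher), 8.14 to 16.9 and 5.75 to 7.99 CPM for endothelial (0 of 3 tested called) and 6.68 to 10.3 and 22.5 to 25.7 CPM for muscle markers (1 of 4 tested higher, 0 lower).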

Additional observations from a re-analysis of the deposited data

How the results depend on the processing

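No alternative called a member higher, and the number of members lower stayed between 28 and 58 under other scalings, filters, tools, the exon length offset and the replicate block. It was 15 at an adjusted p under 0.01 and 23 with the principal transcript length and GC offset, where the median log2 fold change was -0.24. Leaving out 1 library at a time gave 20 to 48 members lower, a median of -0.56 to -0.37, and over all genes 1586 to 2754 higher and 1714 to 2771 lower. Over all genes, 1756 were higher under upper-quartile factors, 1728 with the replicate block and exon length and GC offsets together, and 1115 at an adjusted p under 0.01, at which 1009 were lower. Upper-quartile factors lowered the median of all genes by 0.15, and the share of higher among called genes was 30.6%, against 48.0% in the main comparison. Deviations of mice with the same number in both groups had correlations of -0.11, -0.10 and 0.42. Other pairs of a control and a knockout reached from -0.39 to 0.41, so the numbers were not taken as pairs. With the replicate block 44 members were lower, 39 of them among the 42, and over all genes 2422 were higher and 2701 lower.

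Some signs turned. Among the genes named by rule these were mostly fold changes near 0, while mt-Rnr1 turned from -0.59. Upper-quartile factors gave -0.14 for Mrpl38, -0.13 for Mrpl4, -0.11 for Mrps18b and -0.096 for Mrpl34. The exon length and GC offset gave -0.13 for Mrpl38, -0.035 for Mrpl4, 0.096 for Mrpl39 and 0.066 for mt-Rnr1, and with the replicate block as well -0.13, -0.035, 0.096 and 0.089. The principal transcript length offset gave 0.29 for Mrpl23 and 0.058 for mt-Rnr1. With that offset 15 members were above 0, against 5 in the main comparison, and several had not been near 0. Mrpl42 turned from -0.51 to 0.098. Mrps9 and Mrpl30, which were lower in the main comparison, both turned from -0.44 to 0.056 (adjusted p 0.714 and 0.648). A filter of 1 CPM in 3 libraries gave -0.0051 for Mrpl38. Without 1 library, the fold changes ranged from -0.017 to 0.040 for Mrpl38, -0.0043 to 0.056 for Mrpl4, -0.034 to 0.10 for Mrps18b, -0.036 to 0.15 for Mrpl34 and -0.32 to 0.096 for Mrpl23. The cause was not tested. The 33 members that missed the threshold are not shown to be alike in both groups, and Mrps23 and Mrpl53 had too few reads to compare.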
